A study of Mus musculus with 4 samples.

Results

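Small nucleolar RNAs (snoRNAs) and small Cajal body RNAs (scaRNAs) were examined in bulk RNA-seq libraries of the mouse cerebellum. The members were all listed genes whose symbol starts with Snora, Snord or Scarna, and they were selected on detection, that is, on a TPM (an abundance scaled to gene length and to the library total) above 0 in at least 1 library. Of 119 such genes, 110 met this rule, out of 19182 genes of any kind that did. They comprised 34 Snora, 67 Snord and 9 Scarna genes.

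The samples came from adult male mice. The WT group held 2 littermates without the mutation and the Kdm3b+/- group held 2 mice with 1 Kdm3b allele disrupted by the pGT0lxf gene trap, from the embryonic stem cell line YTC406, on a background backcrossed to C57Bl/6N and then crossed to C57Bl/6J. Each mouse gave 1 library. Kdm3b removes methyl groups from lysine 9 of histone H3, and the allele is disrupted in every cell. The tissue, from the cerebellar vermis, was dissected by hand from sagittal slices to enrich granule cells (GCE), so it also holds other cells, and the labels name it only as cerebellum.

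SnoRNAs guide chemical changes of ribosomal RNA. Box C/D snoRNAs (Snord) guide 2'-O-methylation by fibrillarin and box H/ACA snoRNAs (Snora) guide pseudouridylation by dyskerin, while scaRNAs (Scarna) guide the same changes of spliceosomal RNAs in Cajal bodies. In mammals most of them are cut out of introns of a host gene, and many hosts encode ribosomal proteins or are long noncoding RNAs. Most mature snoRNAs have no poly(A) tail and are short, so an RNA-seq library of longer fragments holds few of their reads.

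The RNAs below are shown because they had some of the largest differences (Snora34, Snord17, Scarna10 and Snora33) or the highest level (Snord96a), and the sequence of Snora74a, whose difference was also among the largest, is not shown here. The sequences are those of GENCODE M21 (build GRCm38), and that of Mir1291 is the RefSeq hairpin. Snora34 lies in an intron of Kansl2 at chr15:98519716-98519853 on the reverse strand. The measured entry of Snora34 was shorter, at chr15:98519717-98519834. Capitals mark the 73 bases that this entry shares with the entry of the microRNA gene Mir1291 at chr15:98519762-98519878, also on the reverse strand. The lowercase bases before them in Snora34 lie outside its measured entry and also stand in Mir1291.
Snora34: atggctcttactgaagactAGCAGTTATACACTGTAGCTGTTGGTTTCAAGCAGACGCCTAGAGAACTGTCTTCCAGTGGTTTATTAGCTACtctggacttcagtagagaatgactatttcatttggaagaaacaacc
Mir1291: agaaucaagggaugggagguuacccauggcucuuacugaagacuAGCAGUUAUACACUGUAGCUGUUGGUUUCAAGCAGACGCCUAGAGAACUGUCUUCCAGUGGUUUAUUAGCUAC

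Scarna10 lies within Ncapd2 at chr6:125186359-125186683 on the reverse strand and overlaps an annotated exon of a gene that spans it. Its last 150 bases are shown (chr6:125186359-125186508), and capitals mark the 71 of all 325 bases that the measured entry covered.
Scarna10: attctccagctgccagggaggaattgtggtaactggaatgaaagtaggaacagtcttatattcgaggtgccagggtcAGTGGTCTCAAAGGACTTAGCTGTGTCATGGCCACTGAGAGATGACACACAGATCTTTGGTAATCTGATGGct

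In the next 3 sequences capitals mark the boxes. Snord17 lies in an intron of Snx5 at chr2:144265979-144266216 on the reverse strand. Snord96a lies within Rack1 at chr11:48802032-48802112 on the forward strand and overlaps an annotated exon of a gene that spans it. In both, capitals mark the C box as TGATGA and the D box as CTGA. Snora33 lies within Rps12 at chr10:23785347-23785475 on the reverse strand and overlaps an annotated exon of a gene that spans it. Its capitals mark the H box as ANANNA and the ACA box.
Snord17: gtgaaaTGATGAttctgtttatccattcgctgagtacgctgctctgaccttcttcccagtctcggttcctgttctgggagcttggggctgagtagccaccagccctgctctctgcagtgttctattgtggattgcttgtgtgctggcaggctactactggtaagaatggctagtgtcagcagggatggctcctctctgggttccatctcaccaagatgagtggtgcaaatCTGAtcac
Snord96a: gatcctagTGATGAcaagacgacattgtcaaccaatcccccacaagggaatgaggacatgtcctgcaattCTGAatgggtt
Snora33: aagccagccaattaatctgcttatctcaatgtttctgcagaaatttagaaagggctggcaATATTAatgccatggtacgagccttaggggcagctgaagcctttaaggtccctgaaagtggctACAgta

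The boxes check the labels of the members, since they define the classes. TGATGA within the first 21 bases was found in 38 of 62 Snord sequences (61.3%), and CTGA within the last 15 bases in 57 of them (91.9%). In 32851 promoter windows of the median Snord length of 80 bases, these shares were 0.371% and 6.26%. ANANNA in the middle of the RNA was found in 30 of 33 Snora sequences (90.9%) and ACA followed by 3 bases at the end in 26 of them (78.8%), against 43.3% and 1.66% of promoter windows of 132 bases. Only the strand of the RNA was searched.

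The sequenced bases behind each value were few. Aligned bases per library, computed from coverage, ranged from 4.919 to 6.691 Gb in all. Of the members, 78 had a TPM above 0 in all 4 libraries, 13 in 3, 9 in 2 and 10 in 1. The median length of the 105 members with 1 locus and a short entry was 81 bases, and 70 of them had a mean depth under 10 reads per base over the 4 libraries, with 28 under 1. A depth of 10 or more was reached by 35 members and 50 or more by 2. Read counts are not known, so no counting interval is given. The least detected members inside the rule were Snord45c with a highest TPM of 0.105, Snord73b with 0.117 and Scarna3a with 0.119. Just outside it were Snora35, Snora36b, Snord123, Snord14a, Snord14c, Snord14d, Snord61, Snord70 and Snord85, each listed at 0 in every library.

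Together the members held 410.5 and 449.6 TPM in the WT libraries and 480.2 and 472.9 TPM in the Kdm3b+/- libraries, between 0.0411% and 0.048% of each total. The sum was higher in both Kdm3b+/- libraries, with a mean of 476.5 ± 5.22 against 430.1 ± 27.6 (SD, n = 2 each; log2 ratio 0.15). An exact two-sided permutation test gave p = 0.33, the smallest value that 2 against 2 mice allow. In bulk tissue, fewer cells of a type and less RNA per cell cannot be told apart.

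The highest levels belonged to C/D and H/ACA RNAs. Snord96a had 58.5 and 49.5 TPM in WT and 53.7 and 56.5 in Kdm3b+/-, so its groups overlapped. Its host Rack1 encodes a scaffold protein of the small ribosomal subunit. Snora28, in the translation initiation factor gene Eif5, had 24.3 and 23.1 TPM in WT and 27.8 and 23.9 in Kdm3b+/-. Snord35b had 17.4 and 19.95 TPM against 18.6 and 15.9, Snora64 in Rps2 had 15.3 and 16.4 against 15.7 and 20.7, and Snora65 in Rpl12 had 15.4 and 17.0 against 19.3 and 14.7. None of these 5 separated the genotypes. Snord42b followed with a mean of 16.2 TPM over the libraries, Snord69 with 15.1, Snora68 with 14.1, Snord91a with 13.9 and Scarna13 with 12.2, and only 12 members reached 10 TPM. Snora68 had 16.6 and 13.8 TPM in WT and 12.5 and 13.4 in Kdm3b+/-, and Snord91a had 13.7 and 17.8 against 11.4 and 12.9. Both lay below WT without overlap, with adjusted p = 0.519 and 0.357 by limma.

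Differences were tested by limma on log2(TPM + 1), which understates the change of low genes. A gene was tested if its TPM averaged 1 or more, and called if it had a fold change over 1.2 beside an adjusted p under 0.05. Of 13652 genes tested, 63 were called (0.461%). Among the members, 68 passed the level filter and 42 did not. The filter used the mean over both groups, and 5 of the 68 had a WT mean under 1 and 3 a Kdm3b+/- mean under 1, so the counts over the 68 describe them and support nothing. Called among the 68 was 1 member, Snora34 (1.47%). The median log2 fold change was 0.12 for the 68 members and -0.07 for all genes tested.

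In 17 of the 68 members both Kdm3b+/- libraries lay above both WT libraries, and in 11 both lay below. The shares among all genes tested were 19.2% above and 32.0% below, together 51.3%, against 41.2% of the members. At an unadjusted p under 0.05, 15 members were higher (22.1%; 5.47% of all genes) and 3 were lower (4.41%; 11.5% of all genes). Among 142 other tested genes under 300 bases these shares were 14.8% and 16.2%, both above those of all genes. The members exceeded all genes only in the higher direction. The 18 members include Snora34, and the adjusted p of the other 17 was 0.055 or more. By class, the median log2 fold change was 0.07 for 22 Snora, 0.11 for 43 Snord and 0.56 for 3 Scarna genes.

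**Figure D1:**
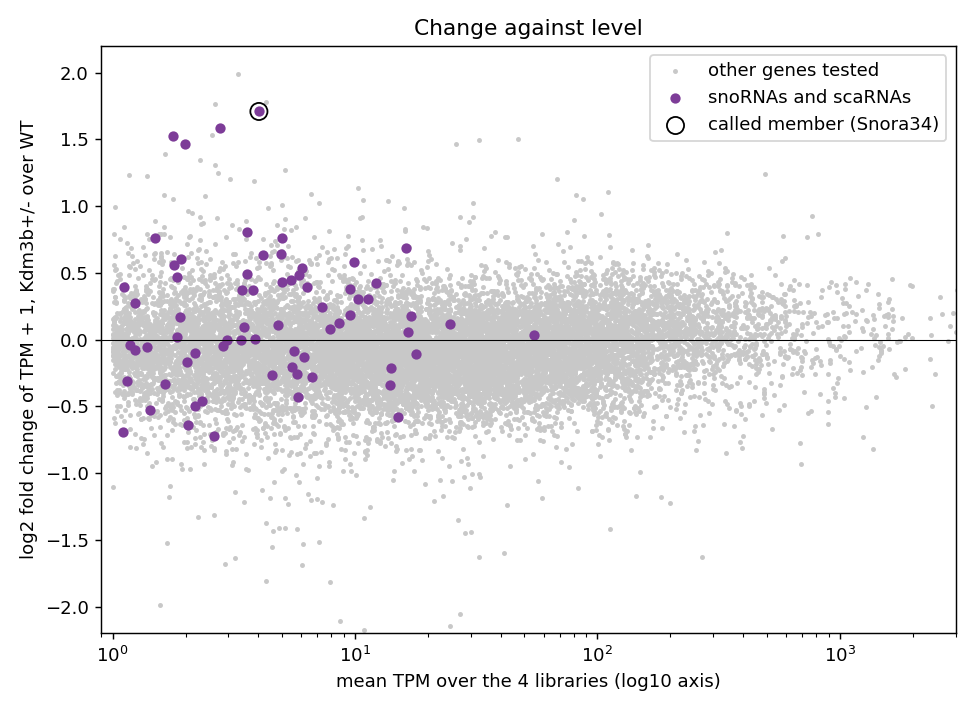
Log2 fold change of TPM + 1 (Kdm3b+/- over WT, vertical axis) against the mean TPM of the 4 libraries (log10 axis) for each gene tested, with the 68 snoRNAs and scaRNAs in purple and Snora34, the called member, circled. The quartiles of the members' log2 fold changes are -0.14 and 0.45, and 4 members stand above 1.4. The axes leave out 22 genes.

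Snora34 had 1.08 and 1.64 TPM in WT and 6.27 and 7.07 TPM in Kdm3b+/-. Both Kdm3b+/- values lay well above both WT values, and Snora34 rose with a log2 fold change of 1.71 ± 0.20 (SE; adjusted p = 0.0116, limma). Its host Kansl2, a subunit gene of a histone acetyltransferase complex, did not follow, with 62.4 and 85.9 TPM against 64.1 and 63.6 (log2 fold change -0.19). Without WT mouse 1 the adjusted p of Snora34 was 0.0694.

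The call of Snora34 depended on how its bases were shared with Mir1291. Of the bases aligned to either gene, Snora34 was assigned 21.6% and 36.4% in the WT libraries and 78.6% and 88.3% in the Kdm3b+/- libraries. Mir1291 had 3.96 and 2.89 TPM in WT and 1.72 and 0.942 in Kdm3b+/-, the opposite direction. Together, the entries held 1309 and 1315 aligned bases in WT and 2493 and 2888 in Kdm3b+/-. Joined over the span of Snora34, an alternative chosen after seeing the data, they gave 5.0 and 4.51 TPM in WT and 7.98 and 8.002 in Kdm3b+/-. The groups still did not overlap, but the log2 fold change was 0.65 with adjusted p = 0.146, and no member was then called.

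**Figure D2:**
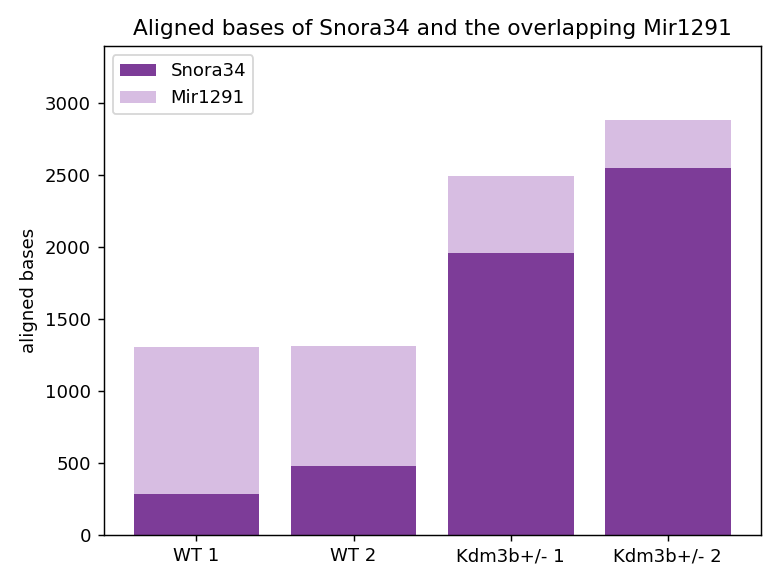
Aligned bases (vertical axis) assigned to Snora34 (dark) and Mir1291 (light) in each library, stacked. The sum was 1309 and 1315 bases in WT and 2493 and 2888 in Kdm3b+/-, while the part assigned to Snora34 went from 21.6% and 36.4% to 78.6% and 88.3%.

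Behind Snora34, 3 members had a log2 fold change above 1.4 that was not called. Snord17, a C/D snoRNA, had 0.557 and 1.14 TPM in WT and 6.28 and 3.10 in Kdm3b+/- (1.58 ± 0.29, adjusted p = 0.06). Scarna10 had 0.451 and 0.655 TPM in WT and 4.51 and 2.34 in Kdm3b+/- (1.47 ± 0.26, adjusted p = 0.0551). Snora74a had 0.956 TPM in WT mouse 1, was listed at 0 in WT mouse 2, and had 3.66 and 2.46 TPM in Kdm3b+/- (1.52 ± 0.31, adjusted p = 0.0997). In each the groups did not overlap. Their WT means were 0.85, 0.55 and 0.48 TPM, under the level filter, so each passed it only through the Kdm3b+/- libraries. Their place among the tested members therefore supports nothing.

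These values rest on little sequence. The mean depth in WT was 1.24 and 2.81 reads per base for Snord17, 1.0 and 1.62 for Scarna10 and 2.12 and 0 for Snora74a. In Kdm3b+/- it was 16.6 and 9.49, 11.9 and 7.16, and 9.69 and 7.54. Their hosts had other changes, with a log2 fold change of -0.04 for Snx5, a sorting nexin gene, -0.39 for the condensin subunit gene Ncapd2, and 0.29 for the noncoding RNA Snhg4. Snora74a lies on chromosome 18, 718 kb from Kdm3b, so the genotype and the alleles linked to the trapped gene cannot be told apart there.

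Among members at higher levels, Snord42b had the clearest separation. It had 11.9 and 12.5 TPM in WT and 19.5 and 21.1 in Kdm3b+/- (0.69 ± 0.15, adjusted p = 0.108), at a depth of 26.4 to 64.4 reads per base. Snora33 had 2.41 and 2.25 TPM in WT and 4.62 and 5.06 in Kdm3b+/- (0.81 ± 0.18, adjusted p = 0.107). The replicates of each group lay close together in both RNAs, and neither passed the test.

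On the low side, Snord116l2 had 2.02 and 1.199 TPM in WT and 0.652 and 0.547 in Kdm3b+/- (-0.69 ± 0.22, adjusted p = 0.197). Snord69, in the nucleolar GTPase gene Gnl3, had 15.4 and 21.2 TPM in WT and 9.99 and 13.9 in Kdm3b+/- (-0.58 ± 0.21, adjusted p = 0.231). Snora52 in Rplp2 had 2.32 and 3.06 TPM against 0.944 and 1.86, Snora81 in Eif4a2 had 2.03 and 3.48 against 1.43 and 1.79, and Snord32a in Rpl13a had 3.63 and 2.16 against 1.67 and 1.91. All 5 lay below WT without overlap and none passed the test.

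**Figure D3:**
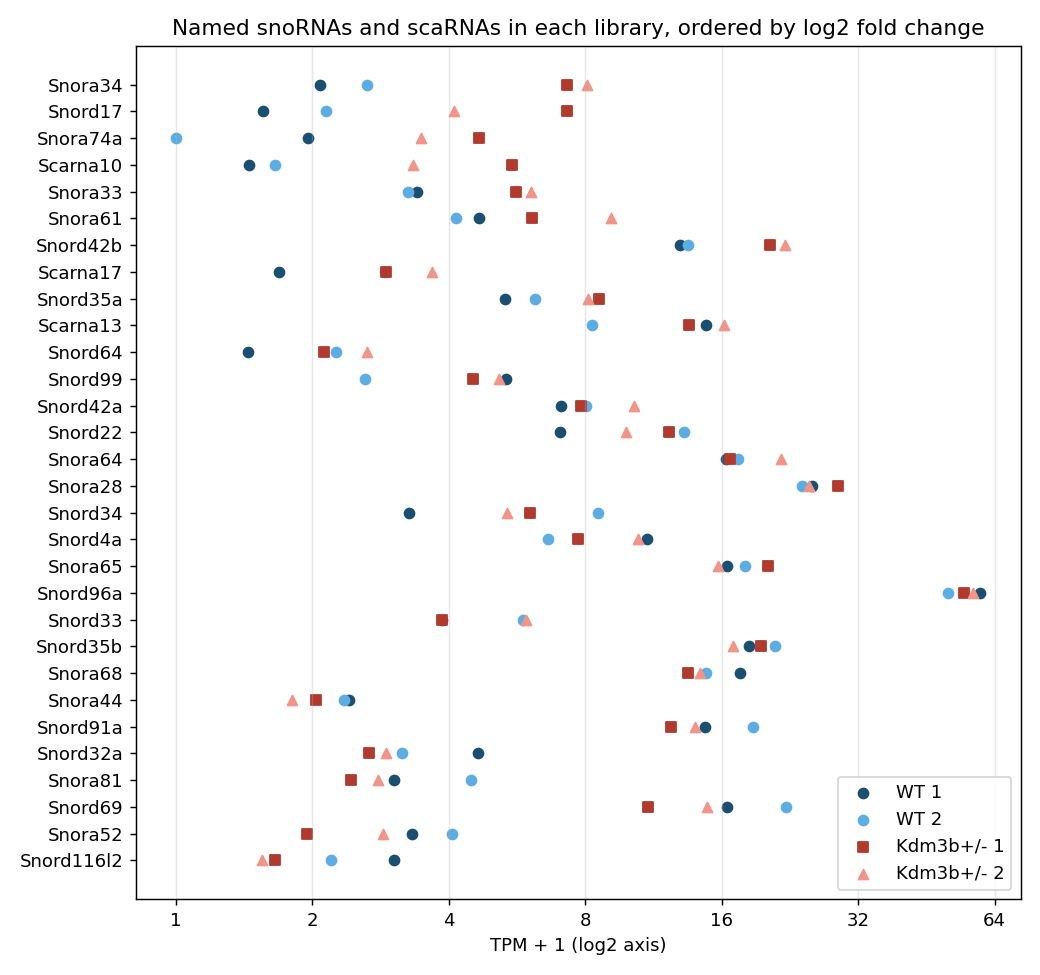
TPM + 1 (log2 axis) of the 30 named snoRNAs and scaRNAs that were tested in each library, WT as blue circles and Kdm3b+/- as red squares and triangles, ordered by log2 fold change from the bottom up. Snora34, Snord17, Snora74a, Scarna10 and Snora33 at the top keep the genotypes apart, as do Snord69, Snora52 and Snord116l2 at the bottom, and the abundant Snord96a does not.

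The other scaRNAs tested were Scarna13 and Scarna17. Scarna13, a guide in the noncoding RNA Snhg10, had 13.8 and 7.27 TPM in WT and 12.5 and 15.2 in Kdm3b+/-, with WT mouse 2 below the other 3. Scarna17 had 0.691 and 1.89 TPM in WT and 1.90 and 2.66 in Kdm3b+/- (adjusted p = 0.328). Summed over the 9 Scarna genes, TPM was 15.5 and 9.94 in WT and 19.8 and 22.8 in Kdm3b+/-.

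Of the snoRNAs with a role in cutting the ribosomal RNA precursor, Snord22 was the member that passed the level filter. Snord118 (U8) was listed at 0 in WT mouse 1 and Kdm3b+/- mouse 2, and had 0.591 and 0.483 TPM in the others, although U8 is among the abundant snoRNAs of most cells. Snord14a, Snord14c and Snord14d (U14) were listed at 0 throughout. Snord22, an RNA of the noncoding host Snhg1, had 6.02 and 12.2 TPM in WT and 11.2 and 8.85 in Kdm3b+/-.

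Orphan C/D snoRNAs of the imprinted Snhg14 region, which is expressed mainly in brain, were detected as Snord64 and as the long entries Snord116l1 and Snord116l2. Snord64 had 0.441 and 1.26 TPM in WT and 1.13 and 1.64 in Kdm3b+/-. Snhg14 itself had 102 and 21.5 TPM in WT and 104 and 98.2 in Kdm3b+/-, so WT mouse 2 stood apart. Snord116l1 had at most 0.248 TPM in a library. Both Snord116 entries span 75591 bases of the same region and are near-copies of each other, so the split of reads between them is uncertain.

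Members of the same host had different fold changes. Rpl13a, a ribosomal protein gene, had 189 and 179 TPM in WT and 234 and 222 in Kdm3b+/- (adjusted p = 0.264), while the log2 fold changes of its 4 RNAs ran from Snord32a at -0.46 through Snord33 at 0.01 and Snord34 at 0.11 to Snord35a at 0.54. Rpl23a had a log2 fold change of 0.42, and its RNAs had 0.08 (Snord4a), 0.24 (Snord42a) and 0.69 (Snord42b). The noncoding Snhg12 had 0.25, and its RNAs had -0.31 (Snora44), 0.37 (Snord99) and 0.76 (Snora61). None of these 10 RNAs passed the test. That test compares the genotypes for each RNA, and the differences between RNAs of the same host were not tested.

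A host gene was found for 100 members in 74 genes. Of the 61 tested members with a tested host, 26 had a higher log2 fold change than their host and 35 a lower one. Across these 61 pairs, which share their libraries and in part their hosts, Pearson's r was -0.11 and Spearman's rho -0.041, a description without a test. Levels were weakly related over 100 pairs (r = 0.325 on log2(TPM + 1)), and the median member had 2.71% of the TPM of its host.

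Ribosomal protein hosts and their RNAs had unlike values. All 18 hosts with a tested RNA had a positive log2 fold change, with a median of 0.37, although none was called. Rpl3, Rpl23 and Rpl39, whose RNAs were not tested, are not among them. Their log2 fold changes were 0.13, 0.34 and 0.46, with unadjusted p = 0.295, 0.0392 and 0.0634 by limma, and Rpl39 overlapped. In 17 of the 18 (94.4%) the Kdm3b+/- libraries lay above WT, against 19.2% of all genes tested. At an unadjusted p under 0.05 by limma, 14 hosts were higher (77.8%, against 5.47% of all genes) and none was lower. Their 25 tested snoRNAs had a median of 0.08, and 20 of the 25 had a lower fold change than the host. Of these snoRNAs, 6 lay above and 5 below WT without overlap, together 44.0%. The shares of all genes were 19.2% above and 32.0% below, together 51.3%. At an unadjusted p under 0.05, 5 of the snoRNAs were higher and 1 was lower. For 16 members in noncoding hosts the median was 0.38 against 0.19 for the 12 hosts, and for 20 in other protein-coding hosts it was 0.20 against -0.05 for 17 hosts. These medians describe the groups and their difference was not tested.

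**Figure D4:**
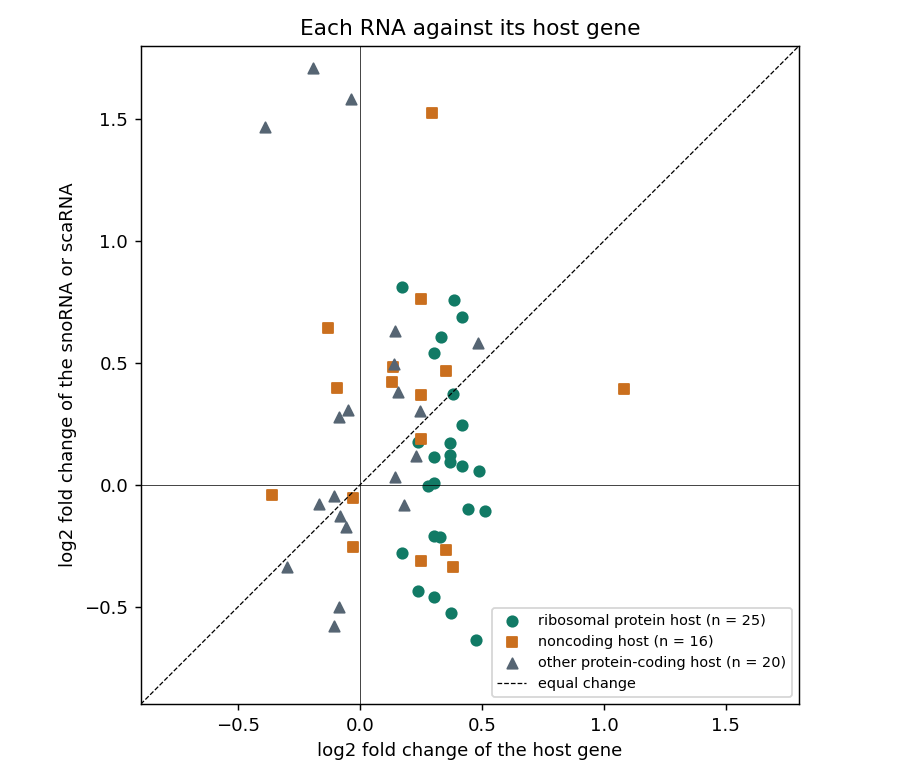
Log2 fold change of each tested snoRNA or scaRNA (vertical axis) against that of its host gene (horizontal axis) for 61 pairs, by kind of host, with a dashed line of equal change. The 25 RNAs of ribosomal protein hosts stand to the right of 0 and spread from -0.64 to 0.81, and 20 of them lie below the line. Both axes use TPM + 1, which understates the change of RNAs at a low level.

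For 2 of the 100 members with a host, no GENCODE gene of the kinds searched spanned them on the same strand. Of the others, 50 overlapped an annotated exon of any such gene, host or not, and 48 lay in introns only. Reads of unspliced or retained host transcripts cover such members too, and the files do not tell them from the snoRNA. Snora19, which shares its 56 bases with Mir3084-1 and Mir3084-2, had 2.72, 3.61 and 3.90 TPM in 3 libraries and 0.281 in Kdm3b+/- mouse 1, where Mir3084-1 had 1.08 TPM against 0.125 to 0.139 in the others. A GENCODE copy of at least 90% identity existed for 30 members, whose reads may be shared.

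The mRNAs of the proteins that bind these RNAs showed no called change, and protein was not measured. Fbl, the C/D methyltransferase, had 90.2 and 90.9 TPM in WT and 110 and 119 in Kdm3b+/- (log2 fold change 0.33, adjusted p = 0.254). Dkc1, the H/ACA pseudouridine synthase, had 54.9 and 57.7 TPM against 56.5 and 58.3 (0.03, adjusted p = 0.931). Of 8 core protein genes tested, none was called, nor was any gene of 15 assembly factors and 19 trimming and turnover factors. The median log2 fold changes were 0.08 (C/D core), 0.28 (H/ACA core), -0.04 (assembly) and 0.06 (trimming and turnover). At an unadjusted p under 0.05 the counts were 1, 1, 0 and 1, each higher.

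The values of other short genes are given beside those of the members. Of 142 tested non-member genes under 300 bases, 2 were called higher and 1 lower (2.11%, against 0.461% of all genes), the median log2 fold change was 0.06, and the groups did not overlap in 43.0% (51.3% of all genes). At an unadjusted p under 0.05, 21 were higher (14.8%; 5.47% of all genes) and 23 lower (16.2%; 11.5% of all genes). Rmrp, the RNA of RNase MRP, was 1 of those called, with 10.1 and 17.3 TPM in WT and 36.4 and 40.7 in Kdm3b+/- (adjusted p = 0.0329).

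Kdm3b had 9.10 and 11.0 TPM in WT and 8.30 and 7.90 in Kdm3b+/-, lower in both mutants without a call (log2 fold change -0.27, adjusted p = 0.424). All 10 granule cell markers were detected, with sums of 3871 to 4562 TPM in WT and 4000 to 4100 in Kdm3b+/-. Markers of other cells were present too, and summed TPM ranged over WT and Kdm3b+/- from 709 to 1620 and from 731 to 904 for 10 Purkinje cell genes, from 16040 to 17550 and from 14890 to 17800 for 8 oligodendrocyte genes, from 3622 to 4410 and from 3190 to 3286 for 10 astrocyte and Bergmann glia genes, and from 55.0 to 60.4 and from 35.8 to 36.9 for 8 fibroblast and meninges genes. The lists of 8 microglia, 8 endothelial and 5 red cell genes had sums of 277.7 to 282.5 and 290.2 to 308, 284.9 to 326.5 and 305.5 to 308.8, and 1142 to 1765 and 1353 to 1928 TPM, and no listed marker was at 0 in all libraries. The sums are led by abundant genes, and single markers differed. Of the astrocyte genes, Aqp4, a water channel gene, and Fabp7, a fatty acid binding protein gene, were called higher in Kdm3b+/- by limma (log2 fold change 1.10 and 1.49, adjusted p = 0.0329 and 0.0133). The myelin gene Mobp was called lower (-0.93, adjusted p = 0.0133), as was Fmod, a matrix protein gene of the fibroblast list (-2.11, adjusted p = 0.00168). The other genes of these lists did not all follow. Of 10 astrocyte and Bergmann glia genes, 4 had a positive and 6 a negative log2 fold change. The counts were 4 and 4 for 8 oligodendrocyte genes, and 2 and 4 for the 6 fibroblast and meninges genes tested. The medians were -0.10, 0.02 and -0.29 in that order. All 10 Purkinje cell genes had a negative log2 fold change, with a median of -0.50 and none called. The part of these cells in the results was not tested.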

How the data were processed

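RNA-seq of GCE tissue was analysed for 2 WT and 2 Kdm3b+/- mice, grouped by the genotype in the labels. The authors aligned reads with STAR and estimated abundance with StringTie, and the versions, library kit, strandedness and genome build are not given in the sources used here. Coordinates matched GRCm38. The authors deposited TPM, scaled to length and to a fixed total, FPKM, scaled to length and mapped fragments, and coverage, an unscaled signal of mean depth. Aligned bases were computed as coverage times length, and 85.7% of 371 values of members came out whole within 0.01 base. TPM was summed over entries of a gene identifier. Genes whose TPM averaged 1 or more were fitted on log2(TPM + 1) with limma 3.58.1 (eBayes with trend) in R 4.3.3, adjusted by Benjamini-Hochberg over 13652 genes, and the script was tested on simulated data. The p-values use the spread between mice, with 2 a group, which limma moderates toward the spread of other genes at a similar level. They therefore do not measure the spread of a member by itself.

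A host was the smallest gene on the same strand that spans the whole RNA. Sequences came from GENCODE M21 transcripts, matched by symbol for 109 members. Named were called members, the 10 with the highest mean TPM, the 5 largest differences each way without overlap, tested Scarna genes, members of the role lists, and RNAs of hosts with at least 3 tested members. The values of 1 host gene are not reported here by themselves. Of the snoRNP core, assembly and trimming genes, Fbl and Dkc1 were named, beside any called. Called marker genes were named after their values were seen. Kdm3b, Rmrp, Snora19, Mir1291, Snhg14 and the members at the detection limit were chosen with their values known. The members and gene lists were chosen with earlier results of these data known. Alternatives were a pseudocount of 0.1, FPKM, median-ratio and quantile scaling, no level filter, a filter at a mean TPM of 5, the highest entry per gene, eBayes without trend or robust, the replicate block, and each library left out. Joining Snora34 with Mir1291, and leaving out members with any annotated copy, were chosen after seeing the data. Python 3.11.15, pandas 2.3.3 and Matplotlib 3.10.9 were used for tables and figures.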

Additional observations from a re-analysis of the deposited data

How the results depend on the processing

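The number of called members was 1 with FPKM, quantile normalization, the highest entry per gene, eBayes without trend and the adjusted p alone. It was 2 with a pseudocount of 0.1 and with robust eBayes (Snora34 and Scarna10), 3 with median-ratio scaling (with Snord17 as well), 0 without a level filter (adjusted p of Snora34 0.173), 0 at a mean TPM of at least 5, where Snora34 was not tested, and 0 with Snora34 joined to Mir1291. Leaving out 1 library gave 0 to 5 called members, with 0 without WT mouse 1, 1 without WT mouse 2, 4 without Kdm3b+/- mouse 1 (Snora34, Snora74a, Snord17 and Snord87) and 5 without Kdm3b+/- mouse 2 (Scarna10, Snora19, Snora34, Snora74a and Snord17), where the lone library is assumed to vary like the other group. Calls over all genes in these 4 fits were 21, 28, 121 and 188, against 63 with all libraries. With the replicate number as a block 6 were called, Snora34, Scarna10, Snora33, Snora74a, Snord17 and Snord42b, against 600 of all genes. Same-numbered libraries come from different mice, and the labels give them only a shared number. The deviations of WT mouse 1 and Kdm3b+/- mouse 1 from their group means correlated at 0.121. This single value cannot tell whether they also share a batch. The median log2 fold change of the members stayed positive in every alternative, was 0.22 with quantile normalization, and ranged from 0.092 to 0.24 with a library left out. Members without overlap numbered 11 at a mean TPM of at least 5, where 29 were tested (37.9%, against 53.1% of all genes), and 42 to 53 with a library left out (61.8% to 77.9%, against 69.8% to 82.4% of all genes), where 3 libraries overlap less often by construction. The log2 ratio of the summed TPM ranged from 0.08 to 0.27.

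Of 406 values of named members under the alternatives, 376 kept their direction and their side of the threshold and 13 turned direction, none of them called. Snord35b had 0.0163 with quantile normalization. With a library left out, the log2 fold change ranged from -0.0855 to 0.15 for Snord96a, from -0.014 to 0.36 for Snora64, from -0.13 to 0.24 for Snora65, from -0.28 to 0.44 for Snord4a, from -0.27 to 0.64 for Snord22, from -0.30 to 0.32 for Snord33, from -0.58 to 0.81 for Snord34 and from -0.14 to 0.88 for Snord99. The cause was not tested. Most members rest on a mean depth under 10 reads per base, which limits the precision of their values.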

Other observations

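Other short structured RNAs were mostly at or near 0. Of 11 listed, 6 were listed at 0 in every library and 2 were tested, and both were called higher in the Kdm3b+/- libraries by limma. These were Rmrp and Rpph1, the RNA of RNase P, which had 20.01 and 28.2 TPM in WT and 79.5 and 60.1 in Kdm3b+/- (adjusted p = 0.0199). Among 21 noncoding snoRNA hosts, none was called, and 3 were higher and 2 lower at an unadjusted p under 0.05, with a median log2 fold change of 0.15. Of 10 nuclear retained long RNAs tested, none was called, and 1 was higher and 3 were lower at that p. Malat1 had 3558 and 3468 TPM in WT and 5074 and 3883 in Kdm3b+/- (adjusted p = 0.26).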
